A study of Rattus norvegicus with 9 samples.

Results

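The heat shock proteins and the DNAJ cochaperones of the rat kidney were read from microarrays of kidneys that had been made ischaemic and then either left without perfusion or perfused in the cold with mesenchymal stromal cells (MSC). A gene was counted as a member when its name on the array began with Hspa, Hspb, Hspd, Hspe or Hsph and a digit, with Hsp90, with Dnaj, or with Hsf and a digit. By this rule 73 genes with 94 probes were members, of 26115 gene names with 30367 probes on the array. Of these, 59 genes were bright enough to be measured, of 13929 measured genes in all.

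Each array held the RNA of 1 kidney of a Fisher F344 rat after 20 min. of warm ischaemia, and 9 arrays in 2 groups were compared. The 5 NP kidneys were stored without perfusion. The 4 MSC kidneys were perfused for 4 hrs at 4°C with Belzer solution (BS), a cold storage solution, to which 3000000 MSC had been added, and a further MSC array discarded in the study was not analysed here. The MSC came from the bone marrow of Sprague Dawley rats that carry an Enhanced Green Fluorescence Protein transgene. The titles of the NP samples name 4 hrs of perfusion with BS, whereas their treatment field says that they were not perfused, as the methods of the study do, and the treatment field was followed. NP and MSC kidneys therefore differed in the perfusion, in the time in the cold and in the MSC, and the parts of these in a difference cannot be told apart. In whole kidney RNA, fewer cells of a type and less RNA per cell cannot be told apart either.

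Molecular chaperones hold and fold other proteins. The Hsp70 proteins (Hspa genes) bind and release stretches of unfolded protein in a cycle driven by ATP. DNAJ proteins, also called J proteins, bring them their substrates and speed up ATP hydrolysis, and the nucleotide exchange factors, Hsph1 and Hspa4 among them, reset the cycle. Hsp90 proteins finish the folding of kinases and receptors, the small heat shock proteins (Hspb genes) keep unfolding proteins from clumping without using ATP, and Hspd1 with Hspe1 forms the folding chamber of the mitochondrion. Heat shock factor 1 (Hsf1) switches on many of these genes when proteins unfold, by binding repeats of the letters GAA and TTC in their promoters. In the kidney, ischaemia is a known trigger of this response, in tubules above all.

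Values are log2 intensities after normalization between arrays, 1 unit being a doubling of brightness, and a difference is always the MSC mean minus the NP mean. Over the arrays, 65.6 to 74.3% of gene spots were well above background, no gene spot was saturated, and the arrays correlated with each other over the measured genes at r between 0.962 and 0.997. The arrays lay on 2 slides, the first with NP 1, NP 2, NP 3, MSC 1 and MSC 2 and the second with NP 4, NP 5, MSC 3 and MSC 4, so that each difference could also be taken within a slide. One NP array stood apart from the rest. On 949 genes with probes at least 500 bases apart on 1 transcript, the brightness of the 5′ probe relative to the 3′ probe, centred on each gene's mean, had a median of -0.19 in NP 1 and of -0.06 to 0.08 in the other arrays.

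With the most variable probe standing for each gene, the 2 largest differences among the members were those of Hspa1b and Hspa8, both Hsp70 genes of the cytosol and both higher in MSC, by 1.12 and 0.67. The place of Hspa8 rests on that probe, since its difference was 0.071 on its brightest probe and 0.32 over the mean of its probes, below the 0.47 and 0.48 of Hsp90aa1. The small heat shock protein Hspb8 and the ER Hsp70 Hspa5 were brighter on every MSC array than on every NP array. None of the 59 members had a limma FDR under 0.05, and neither had any of the 13929 genes (0%). The paper, by contrast, names Tmem52b and Calb1 as passing its thresholds, both higher in MSC, and no gene as lower. The filter on dim probes used here is a reading of the paper's wording, and the cause of this disagreement was not tested. At an unadjusted p under 0.05, 7 members were higher in MSC (11.9% of the members, against 6.6% of all genes) and 1 was lower (1.69%, against 5.1% of all genes). The count depends on the probe taken. With the brightest probe of each gene 5 members were higher (6.25% of all genes), and with the mean of probes 5 (6.41%). All MSC arrays lay above all NP arrays for 2 members (3.39%, against 3.13% of all genes) and below them for 0 members (against 2.13%). The share of members without overlap was therefore close to that of all genes. Of the 59 members, 32 were on average higher in MSC, with a median difference of 0.03, whereas 6771 of all 13929 genes were, and their median was -0.01.

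**Figure D1:**
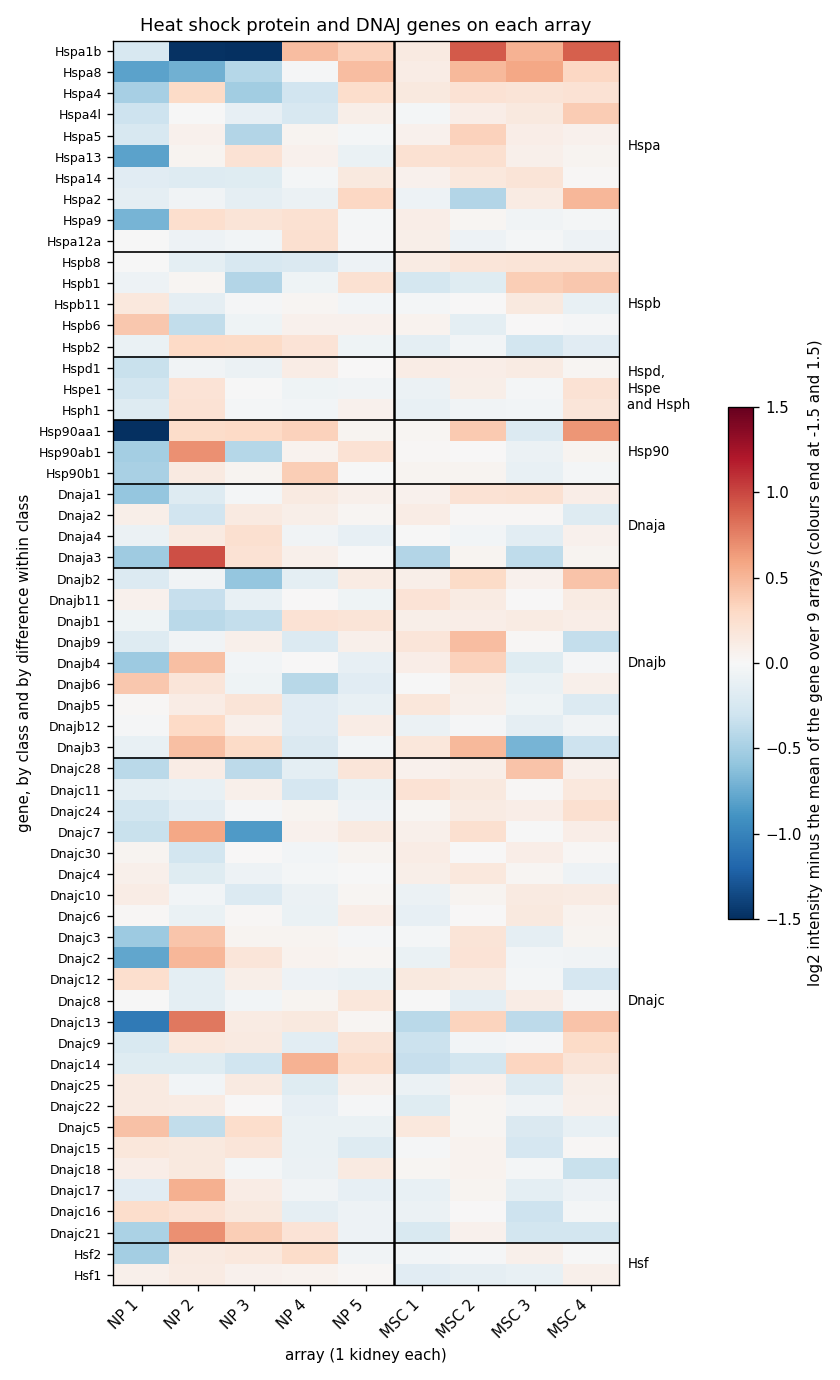
Log2 intensity of the 59 measured genes (rows, by class) on the 9 arrays (columns), each gene centred on its own mean over the arrays. The top rows, Hspa1b and Hspa8, are pale or red on all 4 MSC arrays and blue on NP 2 and NP 3, and the NP 1 column is blue for many genes of several classes.

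The classes differed in how their members were spread. Of the 10 measured Hspa genes 9 were on average higher in MSC, and the median difference of 0.26 was 0.35 within slide 1 and 0.14 within slide 2. The other classes lay near 0. The median was 0.00 for the 5 Hspb genes, 0.09 for Hspd1, Hspe1 and Hsph1 (-0.01 when arrays were scaled to their median), -0.01 for the 3 Hsp90 genes, -0.04 for the 4 Dnaja genes, 0.11 for the 9 Dnajb genes, -0.01 for the 23 Dnajc genes and -0.08 for Hsf1 and Hsf2. For 3 classes the sign of the median depended on the slide. It was 0.27 within slide 1 and -0.04 within slide 2 for the Dnajb genes, 0.14 and -0.16 for the Hsp90 genes, and -0.04 and 0.02 for the Hspb genes. When 1 array was left out, the medians ranged from -0.14 (without NP 1) to 0.16 (without NP 2) for the Hsp90 genes and from 0.028 (without NP 1) to 0.15 (without NP 2) for Hspd1, Hspe1 and Hsph1. For the Dnajb genes they ranged from 0.0054 (without MSC 2) to 0.16 (without MSC 3). Those of the Dnaja genes ranged from -0.066 (without MSC 1) to 0.0027 (without NP 3). Those of the Dnajc genes ranged from -0.035 (without MSC 2) to 0.044 (without MSC 1). The Hspb median ranged from -0.046 to 0.050, and that of Hsf1 and Hsf2 from -0.14 to -0.045.

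**Figure D2:**
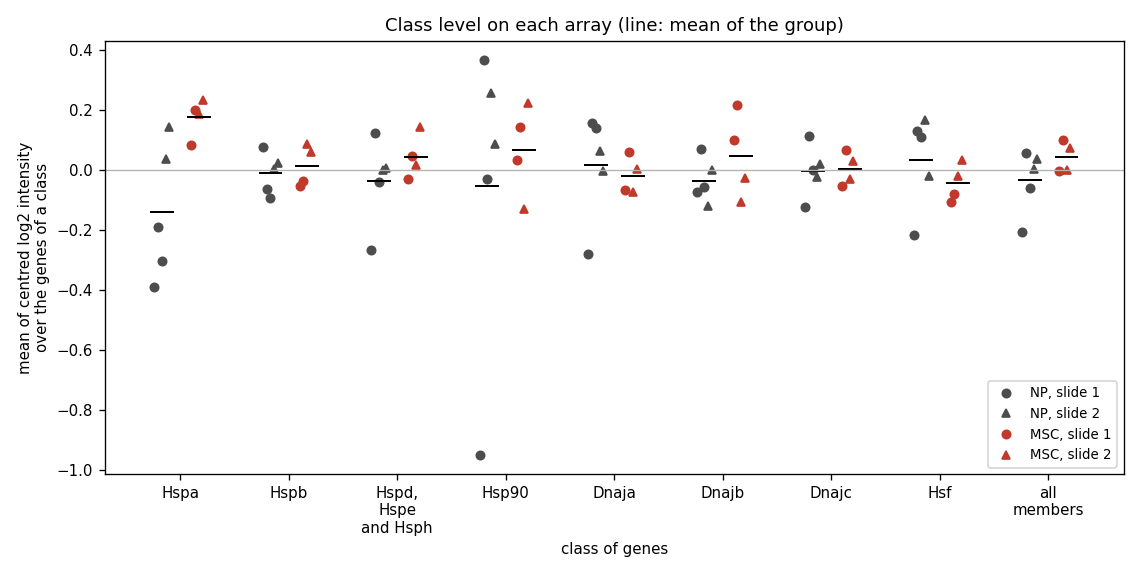
Mean of the centred log2 intensities over the measured genes of each class (vertical axis) on each array, with NP in grey, MSC in red, circles for slide 1, triangles for slide 2 and a line at the mean of each group. In the Hspa class the 3 NP arrays of slide 1 lie at -0.39 to -0.19 and the NP arrays of slide 2 at 0.04 and 0.14, beside MSC arrays at 0.08 to 0.23, and in the Hsp90 class NP 1 lies alone at -0.95.

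The mean level of the Hspa class showed where this difference lay. It was -0.39, -0.19 and -0.30 in NP 1, NP 2 and NP 3, and 0.04 and 0.14 in NP 4 and NP 5, whereas the MSC arrays had 0.08, 0.20, 0.19 and 0.23. The NP arrays of the first slide were thus low, and NP 5 on the second slide was above MSC 1.

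Hspa1b encodes the stress-inducible Hsp70, the best known product of the heat shock response. Its log2 intensity was 13.04, 11.80, 11.72, 13.74 and 13.62 in NP 1 to NP 5 and 13.42, 14.21, 13.80 and 14.18 in MSC 1 to MSC 4. NP 2 and NP 3 were far below all other arrays, NP 4 and NP 5 were above the lowest MSC array, and 3 of 4 MSC arrays were above all NP arrays. The difference was 1.12 ± 0.44 (SE, 95% interval 0.14 to 2.10), a 2.17-fold higher brightness, with a limma FDR of 0.393 and an exact two-sided permutation p of 0.0714. It was 1.63 within slide 1 and 0.31 within slide 2, and it was 0.61 when noisy arrays were given less weight. The probe lies at chr20:3957864-3957923 of the rat build rn4, from base 4229 of the transcript. Another Hspa1b probe, from base 5858, stayed at background on all arrays, between 7.88 and 8.02. No gene of the array was named Hspa1a, the near-identical neighbour, and whether the Hspa1b probe also catches its transcript was not tested.

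Hspa8 encodes Hsc70, the Hsp70 that is made at all times and that, among other tasks, strips clathrin from vesicles. It was measured with 4 probes of the coding sequence, shown here because the difference depended on the place in the transcript.
Hspa8 from base 483: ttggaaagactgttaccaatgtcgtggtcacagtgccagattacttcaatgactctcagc
Hspa8 from base 523: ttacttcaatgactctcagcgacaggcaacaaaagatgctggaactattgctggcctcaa
Hspa8 from base 1800: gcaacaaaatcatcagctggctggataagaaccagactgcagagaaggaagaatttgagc
Hspa8 from base 1860: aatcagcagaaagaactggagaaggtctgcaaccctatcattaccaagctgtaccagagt
The first of these lies at chr8:43785314-43785489 and the third at chr8:43787204-43787517 of rn4, in intervals longer than the probe, as for probes that cross a splice junction. The second lies at chr8:43785470-43785529 and the fourth at chr8:43787518-43787576, and the first and second share bases.

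The probe from base 523, the most variable of the 4 and so the one that stood for the gene, read 14.10, 14.18, 14.47, 14.89 and 15.37 in NP 1 to NP 5 and 15.01, 15.39, 15.49 and 15.22 in MSC 1 to MSC 4. NP 1, NP 2 and NP 3 were the lowest, and NP 5 was above 2 of the MSC arrays, so that the groups overlapped. The difference was 0.67 ± 0.24 (SE, 95% interval 0.13 to 1.22; limma FDR 0.367, exact permutation p = 0.0556), being 0.95 within slide 1 and 0.22 within slide 2. With less weight on noisy arrays it was 0.34.

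The overlapping probe from base 483 gave 0.47 ± 0.23, while the probes from bases 1800 and 1860 gave 0.07 ± 0.10 and 0.07 ± 0.12. On the probe from base 1860 the NP arrays read 17.76, 18.24, 17.90, 18.20 and 18.15 and the MSC arrays 17.89, 18.17, 18.11 and 18.31, with full overlap of the groups. The 3′ probes thus showed no difference beyond the spread between kidneys. The difference of the probe from base 483 exceeded that of the probe from base 1860 by 0.40, against a median of 0.01 over the 949 genes with distant probes, of which 95.5% had a smaller value. NP 1, the array with the lowest 5′ brightness, was the lowest array on all 4 Hspa8 probes, at the 3′ side as well as the 5′ side. Without it the probes from bases 483 and 523 gave 0.31 and 0.55, and those from bases 1800 and 1860 gave 0.0023 and -0.00073.

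**Figure D3:**
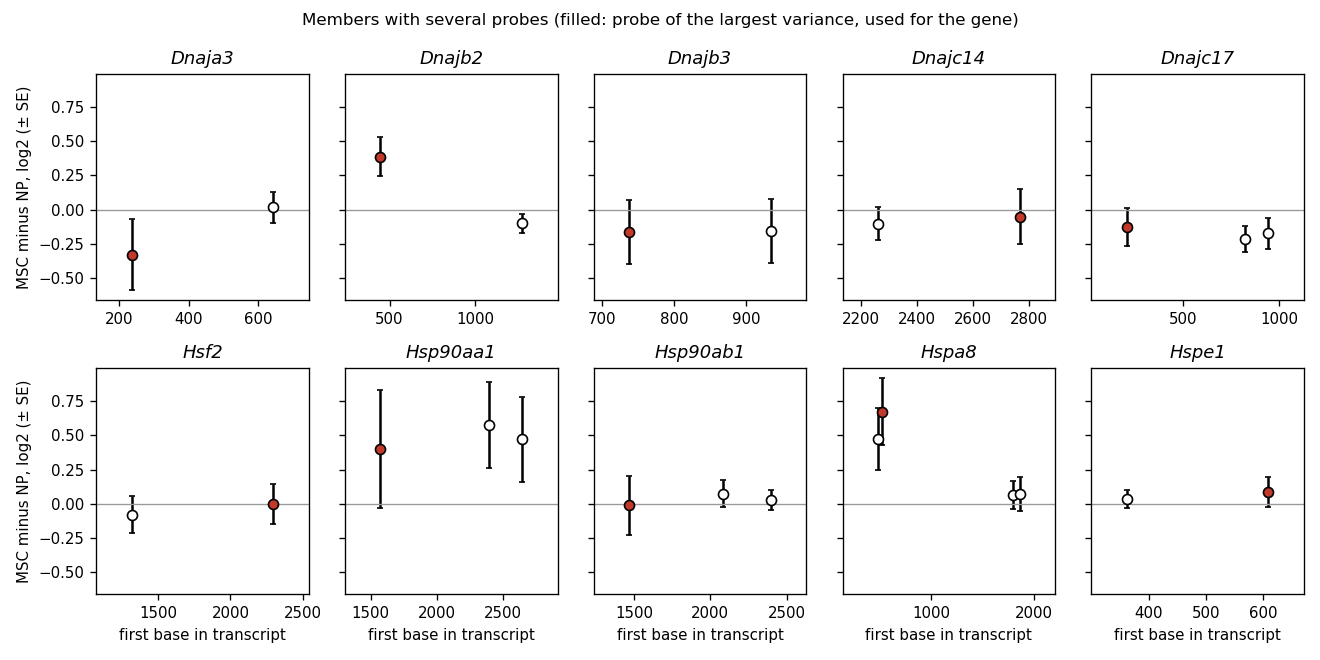
MSC minus NP difference in log2 intensity (points, with SE) of every probe of the 10 members that had several measured probes, against the first base of the probe in its transcript. The difference is large at the 5′ side and near 0 at the 3′ side for Hspa8, changes sign between the probes of Dnajb2, Dnaja3 and Hsp90ab1, and is alike over the 3 probes of Hsp90aa1.

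Hspa5 encodes BiP, the Hsp70 of the endoplasmic reticulum (ER) and a target of the unfolded protein response. It read 16.12, 16.42, 15.92, 16.41 and 16.33 in NP 1 to NP 5 and 16.43, 16.71, 16.46 and 16.43 in MSC 1 to MSC 4. Every MSC array was above every NP array, but by a margin far smaller than the spread within NP, and MSC 2 was well above the other MSC arrays. The difference was 0.26 ± 0.12 (SE; limma FDR 0.433, exact permutation p = 0.0476), being 0.41 within slide 1 and 0.07 within slide 2.

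The other Hspa genes differed by less than 0.4. Hspa4 and Hspa4l are relatives of Hsp70 that act as nucleotide exchange factors, and their differences were 0.35 ± 0.18 and 0.27 ± 0.11. Hspa4l was brighter on 3 of 4 MSC arrays than on all NP arrays (limma FDR 0.404). Hspa14, which works at the ribosome, differed by 0.19 ± 0.09 and Hspa13 of the ER by 0.26 ± 0.18, or by 0.094 without NP 1, its lowest array. The mitochondrial Hspa9 differed by 0.03 ± 0.18, the testis-rich Hspa2 by 0.05 ± 0.18 and the divergent Hspa12a by -0.04 ± 0.09. Hspa1l and Hspa12b did not pass the filter on dim probes.

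**Figure D4:**
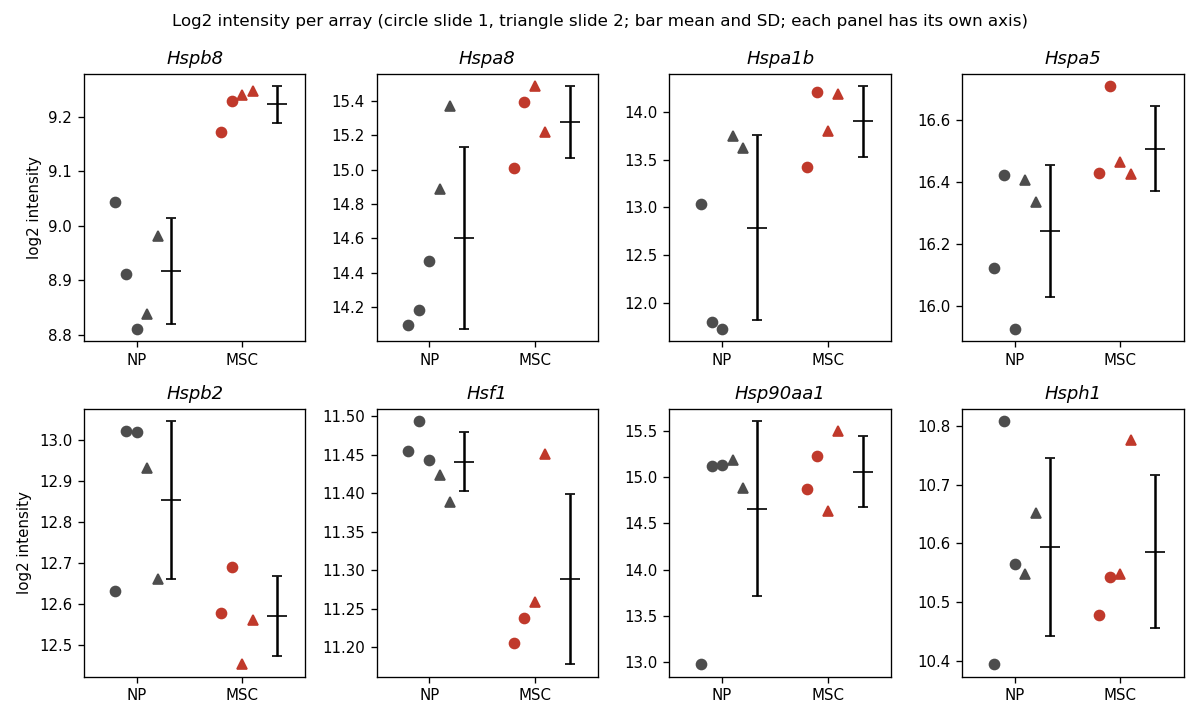
Log2 intensity (vertical axes, one scale per panel) of 8 members on the NP and MSC arrays, with circles for slide 1, triangles for slide 2, and a bar for the mean and SD. The groups are apart for Hspb8 and narrowly so for Hspa5. For Hspa8 and Hspa1b the low NP arrays are circles, and for Hsp90aa1 a single NP array, at 12.98, is far below the others.

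Of the small heat shock proteins, Hspb8 had the smallest p of all members. It is a partner of the cochaperone Bag3 in the removal of damaged proteins. Its probe, shown because it separated the groups, is listed at chr12:41414450-41420599 of rn4, an interval that spans an intron, from base 748 of the transcript.
Hspb8 from base 748: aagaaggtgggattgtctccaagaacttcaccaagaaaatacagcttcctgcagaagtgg
It read 9.04, 8.91, 8.81, 8.84 and 8.98 in NP 1 to NP 5 and 9.17, 9.23, 9.24 and 9.25 in MSC 1 to MSC 4. All MSC arrays were above all NP arrays, on both slides. The difference was 0.31 ± 0.08 (SE, 95% interval 0.14 to 0.47), 1.24-fold, with a limma FDR of 0.333 and an exact permutation p of 0.00794, the smallest that 5 against 4 arrays allow. It was 0.28 within slide 1 and 0.33 within slide 2. The signal was dim, since the filter's threshold lay between 8.71 and 8.78, and the difference was 0.68 when the scanner's background-subtracted signal was used. Bag3 itself, given after its value was seen, differed by -0.07 ± 0.16, or 0.065 without NP 1.

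Hspb2 was the single member lower in MSC at an unadjusted p under 0.05. It is a small heat shock protein known best from muscle. It read 12.63, 13.02, 13.02, 12.93 and 12.66 in NP 1 to NP 5 and 12.58, 12.69, 12.45 and 12.56 in MSC 1 to MSC 4. NP 2, NP 3 and NP 4 were above all MSC arrays, while NP 1 and NP 5 lay among them. The difference was -0.28 ± 0.11 (SE; limma FDR 0.392, exact permutation p = 0.0556) and nearly the same within slide 1, at -0.26, and slide 2, at -0.29.

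Hspb1 (Hsp27), which guards actin filaments, read 13.83, 13.93, 13.46, 13.84 and 14.13 in NP 1 to NP 5 and 13.64, 13.72, 14.26 and 14.30 in MSC 1 to MSC 4. The MSC arrays of slide 1 were low and those of slide 2 high, so that the difference of 0.14 ± 0.18 was -0.06 within slide 1 and 0.30 within slide 2. When 1 array was left out it ranged from 0.038, without MSC 4, to 0.26, without MSC 1. Hspb6 differed by -0.05 ± 0.14 and Hspb11, now named Ift25 and a part of the intraflagellar transport complex, by 0.00 ± 0.09. Hspb3, Hspb7 and Hspb9 did not pass the filter.

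Of the mitochondrial folding chamber, Hspd1, the ring, read 16.69, 16.96, 16.93, 17.13 and 17.03 in NP 1 to NP 5 and 17.13, 17.12, 17.14 and 17.05 in MSC 1 to MSC 4. The MSC arrays lay close together at the top of the NP range, and NP 1 was the lowest. Its difference was 0.16 ± 0.09 (limma FDR 0.528), or 0.096 without NP 1, and that of the lid, Hspe1, was 0.09 ± 0.11, or from 0.028, without NP 1, to 0.15, without NP 2. Hsph1 (Hsp105), the heat-inducible exchange factor of Hsp70, read 10.39, 10.81, 10.56, 10.55 and 10.65 in the NP arrays and 10.48, 10.54, 10.55 and 10.78 in the MSC arrays. The groups overlapped throughout, and the difference was -0.01 ± 0.10 with a 95% interval from -0.23 to 0.22.

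The Hsp90 genes showed no difference beyond their spread. The inducible Hsp90aa1 was represented by the probe from base 1575, at chr6:135415397-135415456 of rn4, given here because 1 array decided its value.
Hsp90aa1 from base 1575: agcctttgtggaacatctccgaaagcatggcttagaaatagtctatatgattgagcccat
It read 12.98, 15.12, 15.13, 15.18 and 14.88 in NP 1 to NP 5 and 14.87, 15.23, 14.64 and 15.50 in MSC 1 to MSC 4. NP 1 was about 2 log2 units below every other NP array, and the remaining arrays overlapped. The difference was 0.40 ± 0.43 (limma FDR 0.741) with NP 1 and -0.02 without it. The other 2 probes of the gene were likewise lowest in NP 1, at 12.49 and 13.78, and gave differences of 0.58 ± 0.32 and 0.47 ± 0.31, or 0.27 and 0.16 without NP 1. The constitutive Hsp90ab1 differed by -0.01 ± 0.22, with 0.07 ± 0.10 and 0.03 ± 0.07 on its other probes, and the ER member Hsp90b1 (Grp94) by -0.03 ± 0.15.

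**Figure D5:**
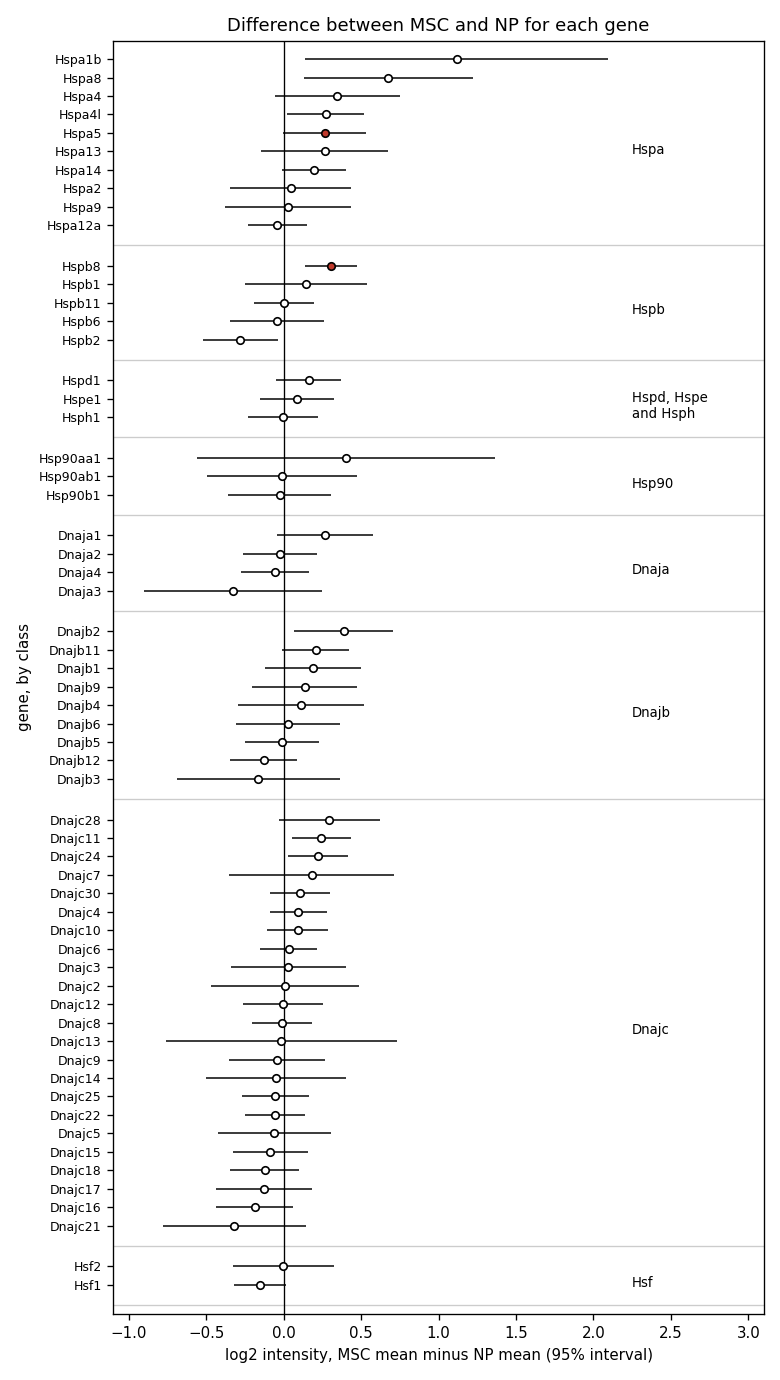
MSC minus NP difference in log2 intensity (horizontal axis, with 95% interval from limma) for each of the 59 measured genes, by class. Filled points mark Hspa5 and Hspb8, whose MSC arrays were all above the NP arrays. The Hspa class lies mostly to the right of 0, and the Dnajc class is spread on both sides of it.

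The J proteins were measured with 36 genes, 4 Dnaja, 9 Dnajb and 23 Dnajc. The partners of cytosolic Hsp70 that heat induces are Dnaja1 and Dnajb1. Dnajb1 (Hsp40) read 12.84, 12.51, 12.56, 13.13 and 13.11 in NP 1 to NP 5 and 13.01, 13.02, 13.04 and 13.01 in MSC 1 to MSC 4. The MSC arrays were almost equal, with an SD of 0.01, and lay between the low NP arrays of slide 1 and the high NP arrays of slide 2. The difference was accordingly 0.37 within slide 1 and -0.09 within slide 2. It was 0.19 ± 0.14 over all arrays (limma FDR 0.615), or 0.11 without NP 2 and 0.12 without NP 3. Over the alternatives in processing it ranged from 0.028 to 0.26. Dnaja1, given outside the rule for named genes after its values were seen, differed by 0.27 ± 0.14, or 0.15 without NP 1. Neither gene had an unadjusted p under 0.05.

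Of the 36 J proteins, 3 were higher in MSC at an unadjusted p under 0.05, Dnajc11, Dnajc24 and Dnajb2, where 6.6% of all genes were. Dnajc11, a protein of the mitochondrial membranes, read 9.94, 9.97, 10.17, 9.84 and 9.99 in NP 1 to NP 5 and 10.30, 10.23, 10.10 and 10.25 in MSC 1 to MSC 4. Only MSC 3 lay below an NP array, and the difference of 0.24 ± 0.09 (limma FDR 0.354, exact permutation p = 0.0238) was 0.24 within slide 1 and 0.26 within slide 2. Dnajc24, which serves the modification of elongation factor 2, read 10.30, 10.41, 10.55, 10.62 and 10.50 in NP 1 to NP 5 and 10.60, 10.70, 10.67 and 10.82 in MSC 1 to MSC 4. Here only MSC 1 lay below an NP array, and the difference was 0.22 ± 0.09 (limma FDR 0.393, exact permutation p = 0.0238).

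Dnajb2, which sorts proteins for the proteasome, had probes that differed in sign. The most variable one, from base 447 of the transcript, is shown for that reason and is listed at chr9:74520585-74521986 of rn4, across an intron.
Dnajb2 from base 447: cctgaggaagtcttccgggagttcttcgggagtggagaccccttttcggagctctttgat
It read 9.60, 9.74, 9.22, 9.65 and 9.93 in NP 1 to NP 5 and 9.88, 10.08, 9.87 and 10.23 in MSC 1 to MSC 4. NP 5 lay above MSC 1 and MSC 3, and the difference was 0.39 ± 0.14 (limma FDR 0.373, exact permutation p = 0.0397). The probe from base 1275, at chr9:74525309-74525368, read 12.80, 12.69, 12.67, 12.72 and 12.76 in the NP arrays and 12.64, 12.51, 12.64 and 12.71 in the MSC arrays, with a difference of -0.10 ± 0.07 (limma FDR 0.593, exact permutation p = 0.0476). Without MSC 2 the probe from base 1275 gave -0.064. The probes of this gene were thus on opposite sides of 0, and no direction can be given for it.

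Of the 36 J proteins, 0 were lower in MSC at an unadjusted p under 0.05, where 5.1% of all genes were. Dnajc17, given outside the rule for named genes, was lower on each of its 3 probes. That from base 211, listed on chr6 of rn4, stood for the gene and gave -0.13 ± 0.14, or -0.010 without NP 2. Those from bases 824 and 944, listed on chr3, gave -0.22 ± 0.10 (limma unadjusted p = 0.0461) and -0.17 ± 0.11, the latter -0.11 without MSC 3. Dnajc16 read 10.24, 10.19, 10.12, 9.83 and 9.90 in NP 1 to NP 5 and 9.88, 9.99, 9.66 and 9.95 in MSC 1 to MSC 4, a difference of -0.19 ± 0.11, or -0.12 without MSC 3. The NP arrays of slide 1 were above all MSC arrays and those of slide 2 were among them. Dnajc21, a factor of ribosome assembly, read 10.95, 12.11, 11.81, 11.64 and 11.36 in NP 1 to NP 5 and 11.21, 11.49, 11.16 and 11.16 in MSC 1 to MSC 4. NP 1 was the lowest array and NP 2 the highest, and the difference was -0.32 ± 0.21, or -0.18 without NP 2.

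Dnajb12 of the ER membrane read 12.68, 13.00, 12.77, 12.53 and 12.81 in NP 1 to NP 5 and 12.61, 12.69, 12.57 and 12.65 in MSC 1 to MSC 4, a difference of -0.13 ± 0.10. Dnaja3 (Tid1), the J protein of the mitochondrial matrix, read 9.72, 11.22, 10.47, 10.33 and 10.25 in NP 1 to NP 5 and 9.82, 10.30, 9.87 and 10.30 in MSC 1 to MSC 4, a difference of -0.33 ± 0.26 on the probe from base 237 and of 0.02 ± 0.11 on that from base 643. For both genes the groups overlapped, and NP 2 was the highest array. Without NP 2 the differences were -0.071 for Dnajb12 and -0.12 for Dnaja3, and without NP 1 that of Dnaja3 was -0.50. Dnajb11 and Dnajc28 differed by 0.21 ± 0.10 and 0.29 ± 0.15, and Dnajc18 by -0.12 ± 0.10, or -0.035 without MSC 4.

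Hsf1, the master factor of the heat shock response, read 11.45, 11.49, 11.44, 11.42 and 11.39 in NP 1 to NP 5 and 11.20, 11.24, 11.26 and 11.45 in MSC 1 to MSC 4. The NP arrays were close to each other, with an SD of 0.04, and MSC 1, MSC 2 and MSC 3 were below all of them, while MSC 4 was among them. The difference was -0.15 ± 0.08 (limma FDR 0.467, exact permutation p = 0.0397), being -0.24 within slide 1 and -0.05 within slide 2. Hsf2 differed by 0.00 ± 0.15. Hsf4, Hsf5 and Hsf2bp, which carries the prefix by name and is a binding partner of Hsf2, did not pass the filter.

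Hsf1 acts at heat shock elements, so the promoters of members with unlike behaviour are set side by side. The letters searched, on both strands, were GAANNTTC and TTCNNGAA (an inverted pair of units) and GAANNTTCNNGAA and TTCNNGAANNTTC (a run of 3 units, which holds overlapping pairs). Over all 33469 RefSeq promoters of rat, 250 bases before to 50 bases after the start on build GRCr8, 15.9% held a pair and 0.798% a run of 3. A promoter was matched by symbol for 56 of the 73 members, too few for a share over the class, and not for Hspa1b, Hsf1 or Hsp90aa1. The 250 bases before the start are printed in 5′ to 3′ direction of the gene, with the matches in capitals.
Hspa8, chr8:50080264-50080513, plus strand: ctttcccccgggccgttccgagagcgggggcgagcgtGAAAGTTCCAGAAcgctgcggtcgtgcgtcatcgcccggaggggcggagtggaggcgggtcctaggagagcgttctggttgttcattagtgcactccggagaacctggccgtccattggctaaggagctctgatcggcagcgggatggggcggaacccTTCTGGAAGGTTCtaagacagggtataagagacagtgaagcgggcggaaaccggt
Hspb8, chr12:45837058-45837307, plus strand: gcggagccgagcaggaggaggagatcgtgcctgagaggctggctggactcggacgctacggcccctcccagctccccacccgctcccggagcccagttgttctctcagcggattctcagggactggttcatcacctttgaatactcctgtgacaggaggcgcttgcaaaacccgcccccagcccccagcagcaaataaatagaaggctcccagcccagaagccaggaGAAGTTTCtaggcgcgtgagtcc
Hspe1, chr9:64084077-64084326, plus strand: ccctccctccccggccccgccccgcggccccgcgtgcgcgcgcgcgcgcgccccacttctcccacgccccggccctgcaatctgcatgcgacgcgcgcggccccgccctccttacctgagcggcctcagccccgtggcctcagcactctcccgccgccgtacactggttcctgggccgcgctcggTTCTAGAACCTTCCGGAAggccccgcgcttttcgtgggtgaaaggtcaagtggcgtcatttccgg
Hsph1, chr12:10427118-10427367, plus strand: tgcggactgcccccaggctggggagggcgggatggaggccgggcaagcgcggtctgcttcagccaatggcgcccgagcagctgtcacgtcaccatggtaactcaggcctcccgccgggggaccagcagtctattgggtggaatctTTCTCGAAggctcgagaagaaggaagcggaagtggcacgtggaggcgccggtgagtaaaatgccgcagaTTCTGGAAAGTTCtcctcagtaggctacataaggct
Hspa8 held 2 runs of 3 units, beginning 213 and 55 bases before the start, and Hspb8 held 1 pair, 23 bases before it. The window of Hspe1 lies between Hspe1 and Hspd1, which are read in opposite directions, and its run of units, from 65 bases before the start of Hspe1, is in the Hspd1 window too. Hsph1 held a run of 3 units from 36 bases before the start and a separate pair further up. Besides these, only the Dnaja1 window held a run of 3 units, after the start. Among the 5 members with such a run the differences were 0.67 ± 0.24 for Hspa8 (0.07 on its 3′ probes), 0.27 ± 0.14 for Dnaja1, 0.16 ± 0.09 for Hspd1, 0.09 ± 0.11 for Hspe1 and -0.01 ± 0.10 for Hsph1. Without NP 1 those of Dnaja1, Hspd1 and Hspe1 were 0.15, 0.096 and 0.028. No match was found in the Hspa5 window. A match describes letters in a window and is not a measured site.

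Lists of related genes placed the members in their pathways. The heat-inducible response of the cytosol, a list of members and other genes, had 22 measured genes, of which 12 were members. MSC exceeded NP on average in 18 of them, the median difference was 0.18, and 6 of them and 0 of the lower ones had an unadjusted p under 0.05. Over all genes 48.6% were higher on average, and 6.6% were higher and 5.1% lower at that threshold. The 3 with the smallest p were Hspb8, Hspa8 and Hspa1b, described above. These and Hspa4l were already counted among the members at that threshold, so the list is not separate from them. Hspa8 differed by 0.07 on its 3′ probes. The median was 0.24 within slide 1 and 0.09 within slide 2. Over all genes the median was -0.01.

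For the next lists too, 48.6% of all genes were higher on average. At an unadjusted p under 0.05, 6.6% of all genes were higher and 5.1% lower. Of the 9 measured ER members 6 were higher, the median being 0.09 and none with an unadjusted p under 0.05, led by Hspa5, Dnajb11 and Hspa13. Of the 7 mitochondrial members 5 were higher, the median being 0.09 and 1 of them, Dnajc11, past that threshold. The next by p were Hspd1, at 0.16, and Dnaja3, at -0.33. The 4 genes of vesicle uncoating had a median of 0.00. Hspa8 was past the threshold on its probe from base 523 but differed by 0.07 on its 3′ probes. Its clathrin partners Gak and Dnajc6 differed by -0.03 ± 0.08 and 0.03 ± 0.08. Gak was at -0.0020 without MSC 2 and at -0.085 without MSC 4, and Dnajc6 at -0.0088 without MSC 3.

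Cochaperones that do not carry the names of the class had 16 of 29 genes higher, a median difference of 0.03, and 5 higher and 0 lower at an unadjusted p under 0.05, beside the same 6.6% and 5.1% of all genes. Sgta, which binds Hsp70 and helps to pass membrane proteins on to their targeting factors, was 12.11, 12.08, 12.33, 12.35 and 12.48 in NP 1 to NP 5 and 12.52, 12.62, 12.56 and 12.62 in MSC 1 to MSC 4, a difference of 0.31 ± 0.10 (limma FDR 0.335). Ppid, a cyclophilin that binds Hsp90, differed by 0.36 ± 0.12, and Stip1 (Hop), which links Hsp70 to Hsp90, by 0.23 ± 0.09. For all 3 every MSC array was above every NP array, as for 3.13% of all genes, and for 0 of the 29 every MSC array was below, as for 2.13% of all genes. The widest differences of the list ran the other way, as was seen after its values were known. They were -0.59 ± 0.33 for Fkbp5 and -0.56 ± 0.35 for Ahsa2 (-0.24 without NP 2), both with overlap of the groups. Fkbp5 ranged from -0.86 to -0.17 over the alternatives in processing. Of the cytosolic folding chamber CCT and of prefoldin 7 of 13 genes lay above 0, and the median was 0.00. Cct4 differed by 0.30 ± 0.11 without overlap of the groups, and Cct5 and Cct6a by 0.17 ± 0.10 (0.10 without NP 2) and 0.26 ± 0.15 with overlap.

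Markers of cell types were read beside these values, and 6.6% of all genes were higher and 5.1% lower at an unadjusted p under 0.05. Of proximal tubule, thick ascending limb and distal segments, 7 of 7, 5 of 5 and 6 of 6 markers were measured. In the proximal tubule 5 of 7 were higher in MSC, 2 of them at an unadjusted p under 0.05, with summed intensities from 767943 to 968891 in NP and from 941340 to 1032100 in MSC, but their median difference was 0.28 within slide 1 and -0.06 within slide 2. In the thick ascending limb 4 of 5 were higher, 3 of them at that threshold, with differences up to 1.37 and sums from 267145 to 477307 in NP and from 351987 to 552201 in MSC. All 6 distal and collecting duct markers were higher in MSC, 4 of them at an unadjusted p under 0.05 and 3 without overlap (3.13% of all genes), and their sum ranged from 300877 to 323930 in NP and from 308857 to 456089 in MSC. All 4 measured red cell markers were lower in MSC at an unadjusted p under 0.05, with differences from -1.61 to -1.80 and sums from 204666 to 392247 in NP and from 17829 to 280577 in MSC. All 5 measured fat markers were higher in MSC, 3 of them at that threshold, with sums from 7901 to 12933 in NP and from 8797 to 61097 in MSC, and their median difference was 0.11 within slide 1 and 2.71 within slide 2. The 4 measured podocyte markers were all lower on average, none at that threshold, with sums from 22019 to 38782 in NP and from 17318 to 31822 in MSC, and with a median of 0.016 within slide 1 and -0.62 within slide 2. The 4 measured leukocyte markers were all higher on average, none at that threshold, with sums from 38642 to 80834 in NP and from 50169 to 94383 in MSC. Of the markers of mesenchymal stromal cells 4 of 5 were higher, 1 of them at that threshold, with a median of 0.19 within slide 1 and -0.0063 within slide 2, while Thy1 and Itga5 did not pass the filter. Of the smooth muscle and pericyte markers 4 of 5 were lower, none at that threshold, with a median of -0.23 within slide 1 and 0.19 within slide 2. The 1 measured skeletal muscle marker differed by -0.24, being -0.24 within slide 1 and -0.19 within slide 2. Of the endothelial markers 2 of 4 were higher, and the 1 measured marker of testis and ciliated cells differed by 0.11. The part of these cell types in the differences of the chaperone genes was not tested.

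Of the 14 members that did not pass the filter, Dnajb7, Dnajb8, Dnajb13, Dnajc5g, Hsf5 and Hspb7 were not well above background on any array. Dnajc5b, Dnajc27, Hsf2bp, Hsf4, Hspa1l, Hspa12b, Hspb3 and Hspb9 were so on at least 1 array, with Hspb3 on all 9. All 59 members that passed were above the threshold on all 9 arrays, so that none entered through the brighter group alone.

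The extremes of the members, like those of all genes, were spread unevenly over the NP arrays. NP 1 held the lowest value of 21 of the 59 members (35.6%, against 25.65% of all genes), with Hsp90aa1, Hspa8, Hspa9, Hspa13 and Hspd1 among them, and NP 2 the highest value of 16 (27.1%, against 28.83% of all genes). NP 5 held the lowest of 0 members (against 3.755% of all genes) and the highest of 1 (1.7%, against 3.618% of all genes). Without NP 1 and NP 2, a choice made after the values were seen, 3 members were higher at an unadjusted p under 0.05 (5.08%, against 6.32% of all genes) and 2 lower (3.39%, against 7.44% of all genes), and the median of the Hspa genes was 0.19.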

How the data were processed

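Per the file headers, scanner intensities (mean, local background and processed signals) came from Agilent Feature Extraction 10.7.3.1, with probe coordinates on rn4. The deposited table of log2 values was made by the authors with cyclic loess in limma and correlated with the values used here at r = 0.9999 on the least similar array. Here log2 mean intensities without background subtraction were normalized by cyclic loess after outlier-flagged spots were left out. Probes were kept where at least 4 arrays exceeded the negative controls' 95th percentile (log2 scale) multiplied by 1.1. The most variable kept probe stood for a gene. limma 3.58.1 (R 4.3.3) compared 5 NP with 4 MSC arrays, with Benjamini-Hochberg adjustment over 13929 genes. The fit was tested on simulated data. 0 columns belonged to other series.

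The members and gene lists were chosen with earlier results of these data known. All Hsp and Hsf genes were named, the 5 Dnaj genes with the smallest p in each direction, the 3 genes of each list with the smallest p, and every gene whose probes differed in sign. Arrays were printed for the 6 smallest p in each direction and for stress genes of general interest. Alternatives changed the intensity column, background, normalization, filter, probe, variance model, blocks and arrays. The number of arrays limits precision. Each array is 1 kidney, and p-values measure the spread between these kidneys.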

Additional observations from a re-analysis of the deposited data

Results flagged for a closer look

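In 108 groups of 4 or 5 arrays, those of the named genes and classes, an extreme array was compared with its neighbours by Dixon's ratio, the gap to the nearest array over the range of the group. The ratio was past its 95% critical value in 6 groups, where chance gives about 5.4. In NP, NP 1 was the lowest array of Hsp90aa1, at 12.98 against 14.88 for the next (ratio 0.864), NP 4 the highest of Hspa12a, at 12.02 against 11.78 (0.767), and NP 5 the highest of Hspa2, at 11.45 against 11.09 (0.807). In MSC, MSC 2 was the highest array of Hspa5, at 16.71 against 16.46 (0.870), and of Dnajc21, at 11.49 against 11.21 (0.842), and MSC 3 was the highest of Dnajc28, at 9.76 against 9.42 (0.956).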

How the results depend on the processing

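No member had an FDR under 0.05 under any of the 25 alternatives. The 7 members higher at an unadjusted p under 0.05 (6.6% of all genes) became 4 with scaling to the 75th percentile (4.87% of all genes), with median scaling (2.07%) and with array weights (8.1%), 3 without NP 1 and NP 2 (6.32%), 8 with the replicate block (6.27%), and 3 to 10 when 1 array was left out (4.93 to 7.36%), being 10 without NP 5 (6.97%) and 3 without MSC 2 (4.93%) or MSC 4 (5.08%). The 1 lower member (5.1% of all genes) became 2 with median scaling (3.97%), array weights (8.44%), every probe as its own row (5.6%), or without NP 1 and NP 2 (7.44%), 3 without a filter (4.03%), and 0 to 3 when 1 array was left out (3.3 to 9.28%), being 3 without NP 1 (9.28%) and 0 without NP 2, NP 3, NP 4, MSC 1 or MSC 3. The median of the Hspb genes was 0.076 with the processed signal, and the Hspa median ranged from 0.19 to 0.30 over all alternatives. Of 1104 differences of 46 genes given in the text, Dnajc17 not among them, 1052 kept their direction under the alternatives. Those of 31 genes did so in every case.

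Signs turned for the other 15 of these genes. None of them had an FDR under 0.05, but Dnajb2 was among the members higher at an unadjusted p under 0.05. With the processed signal Hspa9 was -0.028, Hsph1 0.050 and Hsp90ab1 0.0059. With 75th percentile scaling Hsph1 was 0.024, and with median scaling Hspe1 was -0.056 and Hspa9 -0.023. With the brightest probe Hsp90ab1 was 0.0299, Dnajb2 -0.101 and Dnaja3 0.017, and with the mean of probes Hsp90ab1 was 0.0306. With array weights Hspa2 was -0.095, Hspa9 -0.047 and Bag3 0.075. With the deposited values Hspb11 was -0.00436. Without NP 1 and NP 2, Hsp90aa1 was -0.00613, Hspa2 -0.00153, Hspa9 -0.117, Hsp90ab1 0.045 and Bag3 0.066. When 1 array was left out, Hsp90aa1 ranged from -0.019 to 0.54, Hspb6 from -0.14 to 0.050, Hspa9 from -0.15 to 0.091, Hsp90b1 from -0.15 to 0.063, Hsph1 from -0.071 to 0.047, Hsp90ab1 from -0.14 to 0.16, Hspb11 from -0.046 to 0.043, Hsf2 from -0.13 to 0.067, Hspa12a from -0.077 to 0.012, Hspa2 from -0.11 to 0.20, Bag3 from -0.15 to 0.065 and Dnajc6 from -0.0088 to 0.082. The cause was not tested. Brightest or averaged probes gave 0.07 and 0.32 for Hspa8, and array weights gave 0.34, as the text gives for its 5′ probe.

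The main fit did not take arrays with the same replicate number as pairs. Deviations of arrays with the same number correlated at 0.199, 0.325, -0.349 and 0.045. MSC 1 and MSC 2 resembled the NP array of their number most, whereas MSC 3 and MSC 4 resembled another NP array more. So few values cannot settle whether the numbers mark pairs. The fit with the replicate block drops NP 5, which has no partner, and gave Hsph1 0.00740, Hsp90ab1 0.042 and Hspb11 -0.00774.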
